A study of Mus musculus with 3 samples.

Results

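Complement is a set of plasma and tissue proteins that mark targets for uptake or lysis, and the expression of 9 complement genes (*C1qa*, *C1qb*, *C1qc*, *C1ra*, *C1s1*, *C4b*, *C3*, *Serping1* and *Cd59a*) was followed across the cell types of the mouse cochlea. They were chosen by gene symbol, 9 of the 32285 genes counted, and all 9 were found. A further 47 complement genes were given by counts, with values for those that passed a test. Cells were profiled by 10x Chromium 3′ single-cell RNA-seq, in which a unique molecular identifier (UMI) stands for 1 captured RNA molecule. The mice were of the C57/B6 strain, with no treatment and no altered gene in the labels. There was 1 library at postnatal day 14 (P14) and there were 2 at postnatal day 28 (P28 replicates 1 and 2), each from 14 cochleae of 7 mice pooled before loading. The spread between mice was therefore not measured, and a difference between ages has no replicate check at P14.

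In the classical pathway, C1q recognizes antibody complexes, dying cells and some cell surfaces, and carries the proteases C1r and C1s. Of these, C1s cleaves C4. Cleavage of C4 and C2 leads to cleavage of C3, whose fragments tag surfaces for phagocytes and start the terminal pathway. The C1 inhibitor, encoded by *Serping1*, blocks C1r and C1s, and CD59 stops the membrane attack complex on a cell's own surface. In brain and many other tissues macrophages make C1q, whereas fibroblasts and liver cells make much of the proteases and of C1 inhibitor.

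Barcodes with 200 to 6000 genes and at most 15% mitochondrial UMIs were kept. They numbered 1662 of 2513 at P14, 5651 of 11948 in P28 replicate 1 and 7065 of 18196 in P28 replicate 2. Their median depth was 2477, 2421 and 2037 UMIs, and their median mitochondrial share was 6.24%, 10.0% and 10.8%. The P28 libraries thus held more cells, at a like depth and a higher mitochondrial share. Between 10 and 54 barcodes were shared by a pair of libraries.

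Cells were clustered without any complement gene among the variable genes and clusters were called after their markers, so that each name below means "like" that cell type. Names used are macrophage, granulocyte and B cell, outer and inner hair cell (OHC, IHC), and spiral ganglion neuron (SGN). SC/SGC stands for Schwann and satellite glial cells, TBC for tympanic border cells, RM for Reissner's membrane, and ISC/HeC/OSC for inner sulcus, Hensen's and outer sulcus cells. IPhC/IB stands for inner phalangeal and inner border cells, SpC/RC for spindle and root cells and DC/PC for Deiters' and pillar cells. Mesenchymal clusters that no fixed marker list named were called by their leading genes (Ccl11/Dcn-led, Abcc9/Moxd1-led, Fxyd2/Kcnk2-led), a choice made after the clusters were seen. Of 20 classes, 11 had at least 10 cells in every library. In the P14 library, 117 of the 273 Ccl11/Dcn-led cells belonged to a cluster led by haemoglobin genes. The SC/SGC-like cells of that library were led by genes that included the myelin gene *Mbp* and the oligodendrocyte genes *Mobp* and *Mog*. At P28 the leading genes of SC/SGC-like cells included *Pmp22* and *Prx* of peripheral glia, so that the leading genes of this class differed between the ages.

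The 3 C1q chain genes lie next to each other on chromosome 4 of the mouse genome (GRCm38, minus strand): *C1qb* at chr4:136880129-136886187, *C1qc* at chr4:136889804-136893065 and *C1qa* at chr4:136895917-136898803. Only 3616 bases lie between *C1qb* and *C1qc* and 2851 between *C1qc* and *C1qa*. *C1ra* (chr6:124512405-124523443, plus strand) and *C1s1* (chr6:124530345-124542359, minus strand) lie 6901 bases apart on chromosome 6, in opposite orientation. *Cd59a* is at chr2:104095801-104115354 (plus strand), *Serping1* at chr2:84765387-84775444, *C4b* at chr17:34728380-34743882 and *C3* at chr17:57203970-57228136 (all minus strand).

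The bases before the transcription start of 4 members, taken from RefSeq promoter windows on GRCm38.p6 and cut where an annotated exon began, are printed as examples, among the members with a window, of genes expressed in different cells: C1q genes in macrophages, a protease in mesenchyme and an inhibitor in epithelium. Capitals mark a motif match on either strand. Each sequence runs 5′ to 3′ on the gene's own strand.
*C1qc*, chr4:136893066-136893164, minus strand: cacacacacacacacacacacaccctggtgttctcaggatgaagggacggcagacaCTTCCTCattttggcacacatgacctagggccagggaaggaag
*C1qb*, chr4:136886201-136886450, minus strand: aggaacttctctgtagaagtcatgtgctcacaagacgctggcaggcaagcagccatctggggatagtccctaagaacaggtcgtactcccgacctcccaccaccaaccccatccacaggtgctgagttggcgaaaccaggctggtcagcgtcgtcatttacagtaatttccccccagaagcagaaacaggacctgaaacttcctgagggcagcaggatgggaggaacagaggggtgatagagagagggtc
*C1s1*, chr6:124542360-124542609, minus strand: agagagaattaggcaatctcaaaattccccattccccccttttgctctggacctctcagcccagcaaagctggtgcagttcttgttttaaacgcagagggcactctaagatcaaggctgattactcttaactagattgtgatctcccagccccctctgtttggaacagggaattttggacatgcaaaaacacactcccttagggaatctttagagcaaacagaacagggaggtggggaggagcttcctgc
*Cd59a*, chr2:104095551-104095800, plus strand: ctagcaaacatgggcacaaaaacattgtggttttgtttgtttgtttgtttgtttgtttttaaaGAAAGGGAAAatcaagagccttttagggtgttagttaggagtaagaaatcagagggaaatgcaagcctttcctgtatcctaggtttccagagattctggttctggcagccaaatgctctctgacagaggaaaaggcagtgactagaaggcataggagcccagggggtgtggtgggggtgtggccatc

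RefSeq windows matched 6 of the 9 members, and the 250 bases before the start were searched for GAGGAAG (the core of sites for the macrophage factor PU.1), TTCNNNGAA (STAT sites) and the interferon regulatory factor (IRF) site, which is TTTC, NN and TTTC in a row, on both strands, of which the last 2 can overlap. *C1qc* held GAGGAAG on the reverse strand 194 bases before its RefSeq start, a motif found in 10.6% of 32851 promoter windows. *Cd59a* held the IRF site on the reverse strand 187 bases before its start, a motif found in 2.98% of the windows. No member window held TTCNNNGAA (7.02% of windows). A match describes letters only, and none of these files measured binding.

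The recognition subunit C1q was transcribed almost wholly in macrophage-like cells. *C1qa*, the A chain, was at 4374 CPM (UMIs of the gene per 1000000 UMIs of the class) in the P14 library, 3790 CPM in P28 replicate 1 and 2430 CPM in P28 replicate 2. *C1qb* was at 3292, 3593 and 2046 CPM and *C1qc* at 3426, 3099 and 1851 CPM, in the same order of libraries. All other cells together held *C1qa* at 2.68, 8.21 and 8.21 CPM, *C1qb* at 3.25, 8.46 and 7.99 CPM and *C1qc* at 1.69, 7.20 and 7.15 CPM. The groups lay far apart for each chain, and the 76, 246 and 302 macrophage-like cells carried between 89.8% and 99.0% of a library's UMIs of a chain.

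**Figure D1:**
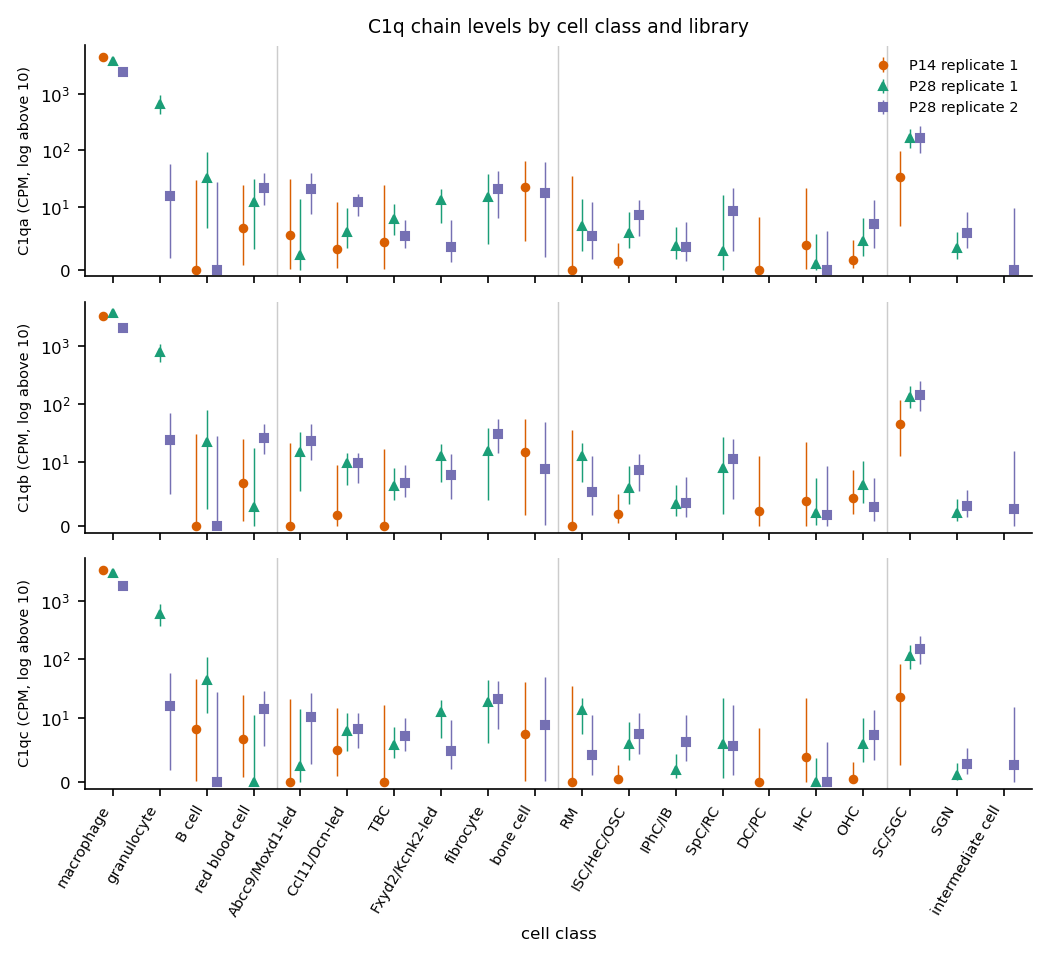
Level of *C1qa*, *C1qb* and *C1qc* in each cell class, 1 point a library, in CPM on an axis that is linear to 10 CPM and logarithmic above it. Bars are exact Poisson 95% intervals, which cover counting error only, and vertical grey lines separate immune and blood, mesenchymal, epithelial and other classes. Macrophage-like cells stand between 1851 and 4374 CPM.

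UMIs summed per class and library were compared with edgeR's quasi-likelihood test with a term for the library, on 3 sums against 3, with p adjusted by Benjamini-Hochberg over 13457 genes. The log2 fold change of macrophage-like against all other cells was 9.38 ± 0.52 (SE) for *C1qa* (adjusted p = 8.71e-06), 9.08 ± 0.43 for *C1qb* (adjusted p = 4.66e-06) and 9.32 ± 0.60 for *C1qc* (adjusted p = 1.59e-05). *C3* was higher too, and with it 4 of the 9 members tested were higher and 1, *Cd59a*, was lower. *C3* passed the expression filter only through its macrophage-like sums, so that it could only be called higher. For *C1qc* the sums of all other cells alone fell short of that filter, at 1.69 CPM at P14. *C1qc* thus needed its macrophage-like sums to enter the test, and its call adds no support to its levels. Among all genes 15.1% were higher and 17.1% lower. The classes were built from other genes of the same cells, so that these tests compare groups that differ by construction in many genes.

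Most single macrophage-like cells held all 3 chains. All 3 were found in 56 of 76 cells at P14 (73.7%, exact binomial 95% interval 62.3 to 83.1%), in 218 of 246 in P28 replicate 1 (88.6%, 84.0 to 92.3%) and in 238 of 302 in P28 replicate 2 (78.8%, 73.8 to 83.3%). None was found in 15, 13 and 37 cells. A *C1qa* UMI was present in 76.3%, 93.1% and 84.4% of macrophage-like cells at a median depth of 3592.5, 2247 and 2097.5 UMIs. In OHC-like cells, a class that should lack the gene, it was present in 1.25%, 1.68% and 2.13% at a median depth of 7159.5, 5235 and 3751 UMIs. With each cell thinned to 1000 UMIs and shallower cells left out, the share was 81.0% at P14 (13 cells left out), 88.4% (31) and 73.1% (16) at P28, against 0.42%, 0.28% and 0.71% in OHC-like cells. The order of the P28 replicates held after thinning, and P14 came to lie between them.

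The chains kept close proportions. In macrophage-like cells *C1qa* made up 39.4% of C1q UMIs at P14 and 36.2% and 38.4% at P28, *C1qb* 29.7%, 34.3% and 32.3%, and *C1qc* 30.9%, 29.6% and 29.3%. The share of *C1qb* at P14 (interval 28.2 to 31.1%) lay below that of P28 replicate 1 (33.2 to 35.4%) by more than counting error and its interval overlapped that of P28 replicate 2 (31.0 to 33.7%).

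The level of C1q differed more between the P28 replicates than it did between P14 and P28 replicate 1. The mean of the P28 replicates was 3110 ± 962 CPM for *C1qa*, 2820 ± 1094 CPM for *C1qb* and 2475 ± 882 CPM for *C1qc* (SD, n = 2). Levels of 10 macrophage marker genes summed in the same cells were 19363, 13785 and 10054 CPM in P14 and the P28 replicates, with none of the 10 at 0, and 10 mesenchymal marker genes summed to 226, 1109 and 1960 CPM. Per macrophage marker UMI there were 0.573 C1q UMIs at P14 and 0.760 and 0.629 at P28, so that on this scale P14 was the lowest of the 3. Granulocyte markers summed to 17904 CPM in these cells at P14, against 43.7 and 33.5 CPM at P28. Granulocyte-like cells of the P28 replicates held the macrophage markers at 14775 and 10719 CPM, with 0.137 and 0.0052 C1q UMIs per marker UMI. The part of granulocyte transcripts in the P14 ratio was not tested. Without the 6, 35 and 94 macrophage-like cells that held UMIs of 2 or more mesenchymal markers, *C1qa* stood at 4425, 4502 and 3327 CPM. *C1qb* was then at 3357, 4188 and 2861 CPM and *C1qc* at 3475, 3605 and 2482 CPM. This brought P28 replicate 1 near the level of P14 for *C1qa* and *C1qc*. For *C1qb*, where replicate 1 already stood above P14, it moved further away. The part of those mesenchymal transcripts in the difference between libraries was otherwise not tested, and age and library cannot be told apart at P14.

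Small amounts of C1q were counted in cells of other classes. Among the 11 classes with at least 10 cells in every library, SC/SGC-like cells came next in the order of mean levels, with *C1qa* at 34.0 CPM at P14 and at 168 and 164 CPM at P28. These rested on few cells: 9, 69 and 42 C1q UMIs came from 7, 6 and 6 cells, and the 5 cells with most UMIs held 77.8%, 98.6% and 97.6% of them. Macrophage-like cells exceeded SC/SGC-like cells in *C1qa* by a log2 fold change of 5.37 ± 0.55 (edgeR's quasi-likelihood test in a joint fit of 11 classes, adjusted p = 2.02e-08, 15.3% of 11678 genes called in this pair). In *C1qa* SC/SGC-like cells were not told apart from the next class, red-blood-cell-like cells (1.55 ± 0.65, adjusted p = 0.174). SC/SGC-like cells exceeded Abcc9/Moxd1-led cells in *C1qb* by 2.80 ± 0.65 (adjusted p = 0.00397, 9.53% of genes called), a difference not called without P28 replicate 1 (2.80, adjusted p = 0.172). Outside these classes, 3 of 14 granulocyte-like cells of P28 replicate 1 held 82 C1q UMIs, and *C1qa* stood there at 666 CPM, against 15.9 CPM in replicate 2. Below the SC/SGC-like cells no pair of neighbouring classes was told apart for *C1qa* with all libraries in the fit, and without the P14 library RM-like cells exceeded IHC-like cells (3.21, adjusted p = 0.0290).

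The proportions of the chains were also taken over all cells outside macrophages. *C1qa* made up 35.2% of C1q UMIs in all other cells at P14 (interval 22.7 to 49.4%), 34.4% (30.5 to 38.4%) in P28 replicate 1 and 35.2% (31.1 to 39.4%) in P28 replicate 2. *C1qb* made up 42.6% (29.2 to 56.8%), 35.4% (31.5 to 39.5%) and 34.2% (30.2 to 38.5%). In the epithelial cells of P14, where 24 C1q UMIs were counted, its share was 58.3% (36.6 to 77.9%), an interval above that of the macrophage-like cells of that library. Cells with UMIs of 2 or more macrophage markers held 22.2% of these C1q UMIs at P14 and 74.9% and 56.8% at P28. C1q UMIs per macrophage marker UMI were 0.412, 0.577 and 0.530 in mesenchymal cells and 0.800, 0.541 and 0.391 in epithelial cells. At P28 most of the C1q UMIs outside macrophages thus lay in cells with 2 or more macrophage markers. In the mesenchymal cells of P28 replicate 2 the share was 47.5%. Of those UMIs in P28 replicate 1, 82 came from 3 granulocyte-like cells, a class that held macrophage markers. At P14 most did not lie in cells with 2 or more markers, with 0 of 24 in epithelial cells. Cells below 2 markers may still hold macrophage transcripts. The part of free RNA or of doublets in them was not tested.

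The proteases C1r and C1s and C4, the substrate of C1s, were transcribed in mesenchymal cells. *C1s1* was at 98.3 CPM in mesenchymal cells at P14 and at 74.2 and 70.3 CPM at P28, against 0.929, 6.48 and 9.35 CPM in epithelial cells. *C1ra* was at 38.1, 19.8 and 14.9 CPM against 2.79, 3.65 and 5.31 CPM. *C4b* was at 50.5, 48.7 and 28.1 CPM against 0, 2.92 and 4.17 CPM. For all 3 genes every mesenchymal sum lay above every epithelial sum. Mesenchymal cells numbered 508, 2541 and 3586, and epithelial cells, hair cells included, 895, 2332 and 2432.

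In the comparison of mesenchymal with epithelial cells, *C1s1* had a log2 fold change of 3.84 ± 0.55 (edgeR's quasi-likelihood test, adjusted p = 0.00353), *C4b* of 4.02 ± 0.65 (adjusted p = 0.00522) and *C1ra* of 2.44 ± 0.40 (adjusted p = 0.00548). With *Serping1*, 4 of the 8 members tested were higher and *Cd59a* was lower. The epithelial sums of *C1s1* and *C4b* alone fell short of the expression filter, at 0.929 and 0 CPM at P14. Both genes thus needed their mesenchymal sums to enter the test, and their calls add no support to their levels. Among the 13987 genes tested 24.8% were higher and 26% lower. The C1q genes were not called, with *C1qa* at 0.82 ± 0.33 (adjusted p = 0.0932), *C1qb* at 0.64 ± 0.23 (adjusted p = 0.0681) and *C1qc* at 0.66 ± 0.34 (adjusted p = 0.166). Without the P14 library *C1qa* (0.62, adjusted p = 0.0319) and *C1qb* (0.71, adjusted p = 0.0101) passed the threshold. Without cells holding UMIs of 2 or more macrophage markers *C1qc* passed it (1.19, adjusted p = 0.0296). Its mesenchymal level was then 2.69, 3.11 and 4.09 CPM and its epithelial level 0.558, 1.49 and 2.32 CPM. The epithelial sums alone fell short of the expression filter, at 0.558 CPM at P14, so that this call adds no support to the levels.

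Within the mesenchyme the highest levels were in the Ccl11/Dcn-led and Abcc9/Moxd1-led cells. *C1s1* stood at 145, 116 and 124 CPM in Ccl11/Dcn-led cells, at 73.1, 126 and 97.4 CPM in Abcc9/Moxd1-led cells and at 44.4, 66.7 and 59.5 CPM in TBC-like cells. The first 2 classes overlapped, and they were not told apart (log2 fold change 0.55 ± 0.38, adjusted p = 0.653, 3.96% of genes called). Abcc9/Moxd1-led cells were not told apart from TBC-like cells either (0.67 ± 0.40, adjusted p = 0.508). Without the P14 library that pair was called (0.70, adjusted p = 0.0127). TBC-like cells exceeded RM-like cells, at 38.0, 31.9 and 24.7 CPM, by 1.34 ± 0.43 (adjusted p = 0.0163, 32.8% of genes called). That last call was lost without P28 replicate 1 (1.33, adjusted p = 0.444) and without P28 replicate 2 (1.19, adjusted p = 0.311). OHC-like cells held *C1s1* at 0, 5.47 and 7.29 CPM. Red-blood-cell-like cells, whose sums are mostly haemoglobin, exceeded them by 3.01 ± 0.80 (adjusted p = 0.00324, 41% of genes called), without P28 replicate 1 by 3.14 (adjusted p = 0.0619) and without P28 replicate 2 by 3.09 (adjusted p = 0.0531), both past the threshold no longer.

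*C1ra* was counted in the same mesenchymal classes. Abcc9/Moxd1-led cells held it at 67.5, 59.5 and 41.0 CPM, Ccl11/Dcn-led cells at 45.6, 30.1 and 26.9 CPM and TBC-like cells at 17.8, 15.0 and 10.6 CPM. Ccl11/Dcn-led cells exceeded TBC-like cells by 1.23 ± 0.36 (adjusted p = 0.0353, 6.57% of genes called), a call lost without either P28 replicate (adjusted p = 0.963 without replicate 1 and 0.958 without replicate 2). RM-like cells, which are epithelial, held *C1ra* at 76.0 CPM at P14, from 8 UMIs (interval 32.8 to 150 CPM), and at 19.5 and 26.8 CPM at P28. The log2 fold change of Abcc9/Moxd1-led against RM-like cells, 1.03 ± 0.44, was not called (adjusted p = 0.102), and was called without the P14 library (1.18, adjusted p = 0.00567). That of RM-like against Ccl11/Dcn-led cells, -0.44 ± 0.40, was not called (adjusted p = 0.453). Of single mesenchymal cells, 12 of 508, 52 of 2541 and 41 of 3586 held UMIs of both *C1ra* and *C1s1*. A cell without a UMI may still hold the RNA at such levels. These counts therefore do not show how often the same cell expresses both genes, which was not tested.

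**Figure D2:**
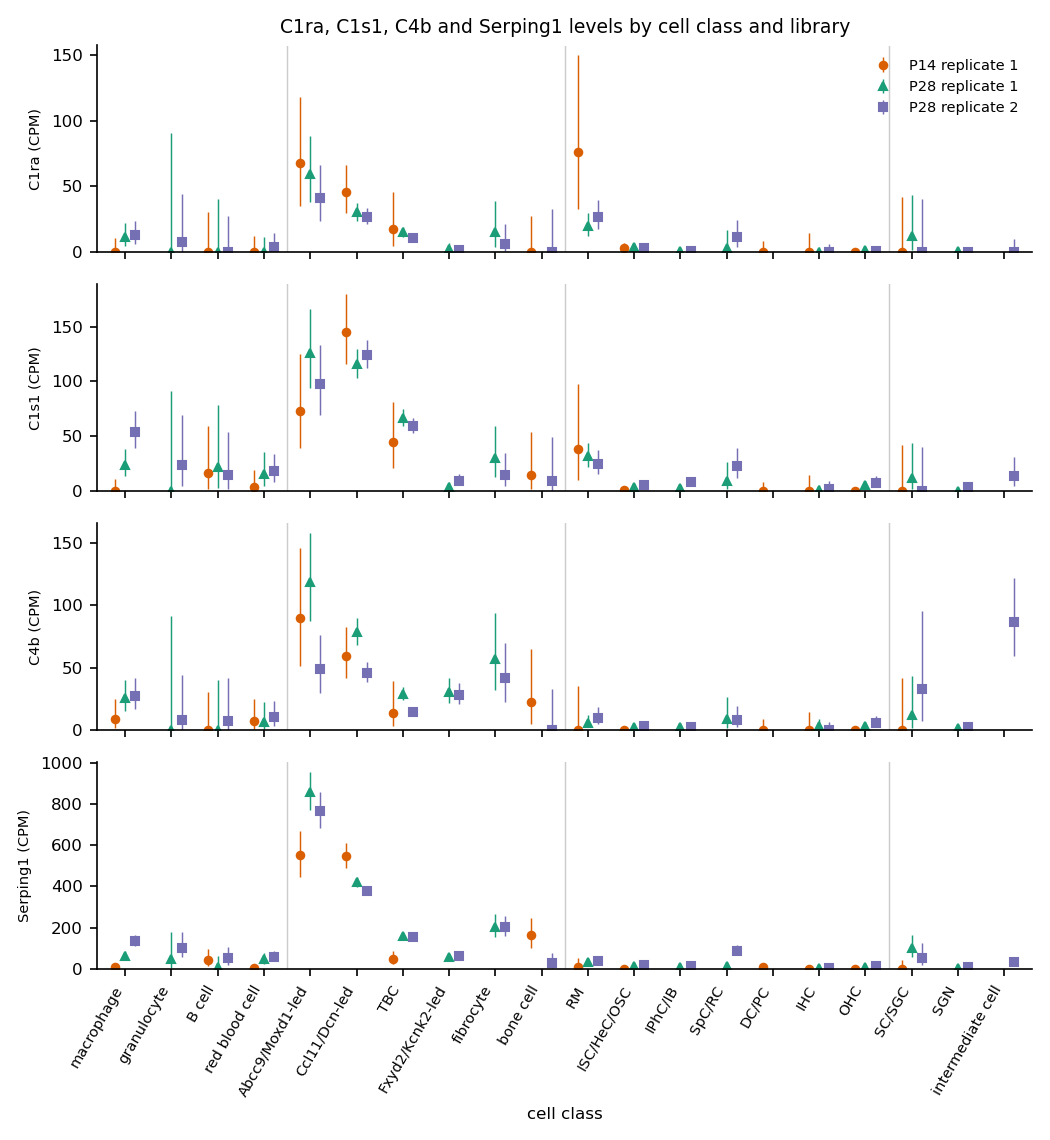
Level of *C1ra*, *C1s1*, *C4b* and *Serping1* in each cell class in CPM, 1 point a library, with exact Poisson 95% intervals for counting error. Vertical grey lines separate immune and blood, mesenchymal, epithelial and other classes. The Ccl11/Dcn-led and Abcc9/Moxd1-led cells hold *Serping1* between 378 and 860 CPM.

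*C4b*, the substrate of C1s, followed the same classes. It was at 90.0, 119 and 48.7 CPM in Abcc9/Moxd1-led cells and at 59.2, 78.4 and 45.9 CPM in Ccl11/Dcn-led cells, which were not told apart (0.31 ± 0.37, adjusted p = 0.859). TBC-like cells held it at 13.3, 28.7 and 14.2 CPM. Fibrocyte-like cells, which were found at P28 only, held it at 56.8 and 41.4 CPM, and 142 intermediate-cell-like cells of P28 replicate 2 at 86.2 CPM (interval 59.0 to 122 CPM). Ccl11/Dcn-led cells exceeded macrophage-like cells, at 8.57, 25.4 and 27.1 CPM, by 1.45 ± 0.40 (adjusted p = 0.00617, 30.7% of genes called). Without P28 replicate 1 this was not called (1.50, adjusted p = 0.267).

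One cluster of the Ccl11/Dcn-led class stood above the others in *C4b*. It was led by *Ly6a*, *Ccl11* and the interferon-responsive gene *Ifit3*, and held 79 and 84 cells of the P28 replicates. *C4b* was at 239 CPM there in P28 replicate 1 (interval 172 to 325 CPM) and at 79.0 CPM in P28 replicate 2 (42.1 to 135 CPM). The largest cluster of the class stood at 77.4 CPM (63.4 to 93.6 CPM) and 46.7 CPM (37.7 to 57.2 CPM), so that the intervals were apart in replicate 1 and overlapped in replicate 2. The cluster was singled out after its values were seen and was not tested.

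The C1 inhibitor gene *Serping1* was the most abundant member in mesenchymal cells. Mesenchymal cells held it at 403 CPM at P14 and at 256 and 229 CPM at P28, and epithelial cells at 1.30, 12.1 and 22.9 CPM. All mesenchymal sums were higher, by a log2 fold change of 4.86 ± 0.89 (edgeR's quasi-likelihood test, adjusted p = 0.00767). The sum of 10 mesenchymal marker genes in OHC-like cells, which should lack them, was 161, 405 and 600 CPM, and *Serping1* there was at 0, 10.9 and 13.9 CPM. Both were lowest at P14 and highest in P28 replicate 2, as was epithelial *Serping1*, and the part of free RNA in these values was not tested.

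Abcc9/Moxd1-led cells held *Serping1* at 551, 860 and 766 CPM and Ccl11/Dcn-led cells at 548, 420 and 378 CPM. The former were higher in each library, by little at P14, and with all libraries the classes were not told apart (0.32 ± 0.50, adjusted p = 0.910). Without the P14 library they were (0.93 ± 0.13, adjusted p = 4.86e-08). A *Serping1* UMI was seen in 52.1%, 68.1% and 59.8% of Abcc9/Moxd1-led cells at a median depth of 1418, 1526 and 1257.5 UMIs, and in 0%, 4.47% and 4.96% of the deeper OHC-like cells. After thinning to 1000 UMIs the shares were 37.7%, 53.9% and 52.2%, against 0%, 1.12% and 0.71%. Both scales show *Serping1* in most or many of the Abcc9/Moxd1-led cells. The absence of a UMI in 240 OHC-like cells at P14 allows a level of up to 1.65 CPM at 3 counts.

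TBC-like cells, the cells under the basilar membrane, held less *Serping1* at P14. Their level was 48.8 CPM (interval 24.4 to 87.4 CPM) at P14, from 63 cells, and 158 and 152 CPM at P28, whose mean was 155 ± 3.63 CPM (SD, n = 2). Ccl11/Dcn-led cells exceeded them by 2.26 ± 0.53 (adjusted p = 0.00494). The call was lost without P28 replicate 1 (2.84, adjusted p = 0.247), without P28 replicate 2 (2.76, adjusted p = 0.113) and without the term for the library (1.81, adjusted p = 0.280). Fibrocyte-like cells held *Serping1* at 204 CPM in both P28 replicates. Fxyd2/Kcnk2-led cells stood lower, at 57.3 and 60.3 CPM.

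In macrophage-like cells the proteases and the inhibitor moved with mesenchymal transcripts. *Serping1* was at 8.57 CPM at P14 and at 63.4 and 137 CPM at P28, and *C1s1* at 0, 23.9 and 54.1 CPM, in the order of the mesenchymal marker sum (226, 1109 and 1960 CPM). Against all other cells, *Serping1* (-0.39 ± 0.41, adjusted p = 0.505), *C1s1* (0.10 ± 0.45, adjusted p = 0.895), *C1ra* (0.28 ± 0.57, adjusted p = 0.743) and *C4b* (0.71 ± 0.31, adjusted p = 0.116) did not pass edgeR's quasi-likelihood test. *C4b* passed it without the P14 library (0.82, adjusted p = 0.0241).

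Without the 6, 35 and 94 macrophage-like cells holding UMIs of 2 or more mesenchymal markers, *Serping1* was at 3.28, 11.3 and 4.89 CPM and *C1s1* at 0, 3.78 and 7.33 CPM. Both then lay below all other cells (log2 fold change -3.46 for *Serping1* and -2.56 for *C1s1*). In that fit 3 of 8 members tested were lower, against 21.4% of all genes. *C4b* stood at 6.55, 24.5 and 17.1 CPM. That gene changed least of the 3, while *C1ra* was at 0, 5.66 and 7.33 CPM. This exclusion was chosen after the data were seen. It took macrophage-like cells out by their mesenchymal transcripts, while the comparison group kept its mesenchymal cells. A fall of genes expressed in mesenchyme was thus built in, and the comparison cannot tell whether macrophages express them.

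**Figure D3:**
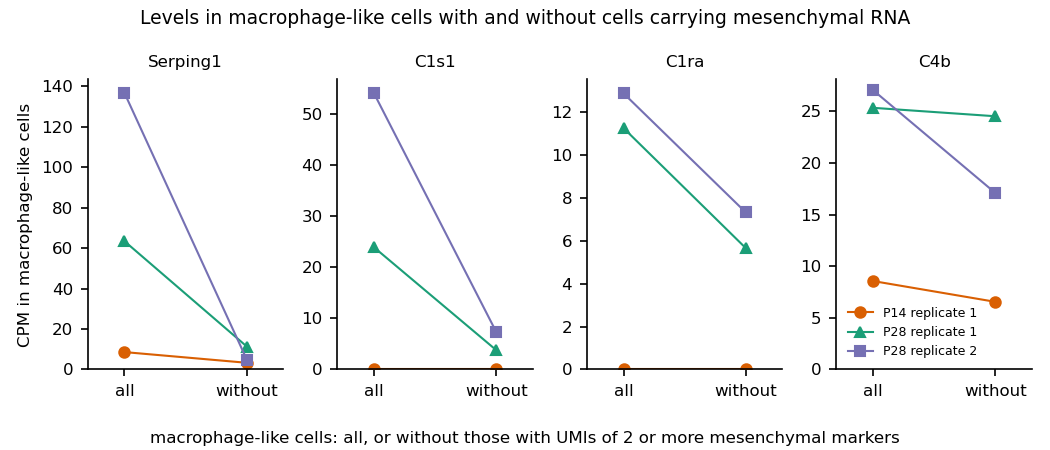
*Serping1*, *C1s1*, *C1ra* and *C4b* in macrophage-like cells with all cells kept and without cells holding UMIs of 2 or more mesenchymal markers, in CPM, 1 point a library. *Serping1* falls from 8.57, 63.4 and 137 CPM to 3.28, 11.3 and 4.89 CPM and *C1s1* from 0, 23.9 and 54.1 CPM to 0, 3.78 and 7.33 CPM.

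*C3*, the protein on which all complement pathways meet, was barely detected. Only 6, 10 and 36 UMIs were counted in the 3 libraries, in 6, 8 and 24 cells. Granulocyte-like cells, found at P28 only, held most of them in replicate 2, with 27 UMIs in 17 of 36 cells (215 CPM, interval 142 to 313 CPM), and 3 UMIs in 2 of 14 cells in replicate 1 (74.0 CPM, 15.3 to 216 CPM). Macrophage-like cells held 5, 4 and 3 UMIs, or 14.3, 5.63 and 3.87 CPM. No *C3* UMI was found in 508, 2541 and 3586 mesenchymal cells, which at 3 counts allows up to 2.66, 0.338 and 0.296 CPM.

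The log2 fold change of *C3* in macrophage-like against all other cells was 3.77 ± 1.04 (edgeR's quasi-likelihood test, adjusted p = 0.0247). It rested on 12 UMIs, and without P28 replicate 1 it was not called (3.37, adjusted p = 0.152). In all other cells *C3* was at 0.141, 0.251 and 1.47 CPM, and it passed the expression filter only through the macrophage-like sums. Such a gene enters the test only where it is high in those sums, so that the call adds no support to its levels. The P14 macrophage-like cells included granulocyte transcripts: 9 granulocyte markers summed to 17904 CPM there, against 43.7 and 33.5 CPM at P28. Without the 7 P14 cells that held UMIs of 3 or more of those markers, *C3* was at 8.95 CPM at P14 and the log2 fold change was 3.51 (adjusted p = 0.0301).

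CD59a is an inhibitor of the membrane attack complex, and its gene was higher in epithelial than in mesenchymal cells. *Cd59a* was at 84.7 CPM in epithelial cells at P14 and at 43.6 and 45.6 CPM at P28, against 5.31, 2.82 and 6.01 CPM in mesenchymal cells. The log2 fold change of mesenchymal against epithelial cells was -3.43 ± 0.26 (edgeR's quasi-likelihood test, adjusted p = 0.000592), and that of macrophage-like against all other cells was -2.64 ± 0.34 (adjusted p = 0.000676). Macrophage-like cells held *Cd59a* at 8.57, 5.63 and 3.87 CPM. Epithelial cells carried 95.6%, 58.3% and 48.7% of its UMIs, with glia and, at P28, neurons among the rest.

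Within the epithelium the level differed between classes. ISC/HeC/OSC-like cells held *Cd59a* at 154, 84.6 and 70.0 CPM, RM-like cells at 85.5, 67.3 and 86.8 CPM and, at P28, IPhC/IB-like cells at 47.7 and 48.2 CPM. Hair cells stood far lower, OHC-like cells at 1.65, 2.11 and 3.65 CPM and IHC-like cells at 3.96, 6.19 and 10.1 CPM. A UMI was seen in 43.6%, 24.9% and 16.8% of ISC/HeC/OSC-like cells at a median depth of 3160, 2898 and 2453 UMIs, and in 1.25%, 1.40% and 1.77% of OHC-like cells. Thinned to 1000 UMIs the shares were 14.5%, 9.91% and 7.51% against 0%, 0% and 1.06%.

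SC/SGC-like cells held *Cd59a* at 90.6 CPM at P14, all 8 UMIs of it in 1 cell of 30, and at 210 and 153 CPM at P28, in 31.9% and 28.6% of cells. SGN-like cells, found at P28 only, held it at 80.1 and 76.2 CPM. The 142 intermediate-cell-like cells of P28 replicate 2 held it at 116 CPM (interval 83.9 to 156 CPM). With all libraries SC/SGC-like cells were not told apart from ISC/HeC/OSC-like cells (0.29 ± 0.37, adjusted p = 0.664), nor the latter from RM-like cells (0.76 ± 0.33, adjusted p = 0.104). Without the P14 library both pairs were called (0.82, adjusted p = 0.0324, and 0.46, adjusted p = 0.0479). Among the 11 classes fitted jointly, RM-like cells exceeded the next, B cells, by 2.12 ± 0.69 (adjusted p = 0.0211, 26.6% of genes called). This call was lost without the P14 library (1.34, adjusted p = 0.105) and without P28 replicate 1 (1.70, adjusted p = 0.209).

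In ISC/HeC/OSC-like cells *Cd59a* was higher at P14, at 154 CPM (interval 138 to 172 CPM), than at P28, where the mean was 77.3 ± 10.3 CPM (SD, n = 2). The P14 interval lay above both P28 intervals (74.6 to 95.6 CPM and 59.8 to 81.4 CPM). Different clusters made up the class at the 2 ages and P14 was 1 library, so that age, clustering and library cannot be told apart.

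**Figure D4:**
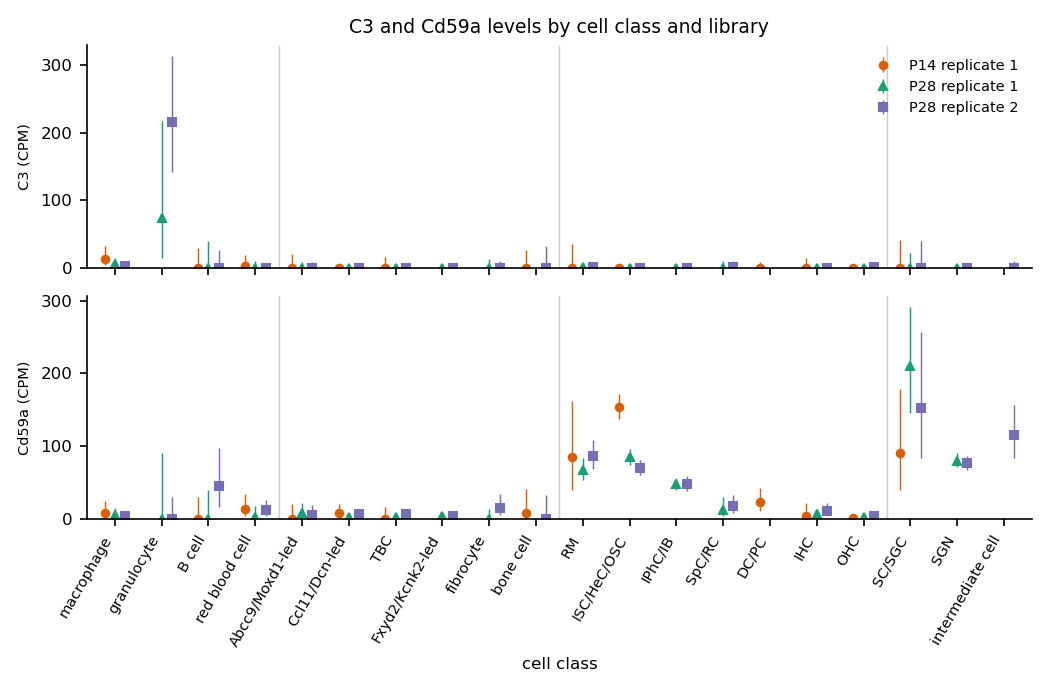
Level of *C3* and *Cd59a* in each cell class in CPM, 1 point a library, with exact Poisson 95% intervals for counting error. *C3* reaches 215 CPM in granulocyte-like cells of P28 replicate 2, and *Cd59a* reaches 210 CPM in SC/SGC-like cells and 154 CPM in ISC/HeC/OSC-like cells.

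Members differed in the company they kept. Over 33 class sums (11 classes in each of 3 libraries), log2(CPM + 10) of the C1q chains correlated with one another at 0.99 (Pearson's r), of *C4b* with *Serping1* at 0.92, of *C1s1* with *Serping1* at 0.89 and of *C1ra* with *C1s1* at 0.84. The closest of 7376 genes outside complement were *Trem2*, *Csf1r* and *Pf4* for *C1qa* (0.97 for each) and for *C1qb*, and *Lyz2*, *Csf1r* and *Pf4* for *C1qc*. *Foxp2* was closest to both *Serping1* (0.97) and *C4b* (0.95), *Bmp5* to *C1ra* (0.91), *Wdr86* to *C1s1* (0.91) and the myelin gene *Mal* to *Cd59a* (0.89). These are descriptions: points of a library share its depth and free RNA, and classes recur over libraries. *C3*, with a mean of 0.988 CPM over these sums, was too sparse for such a measure.

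**Figure D5:**
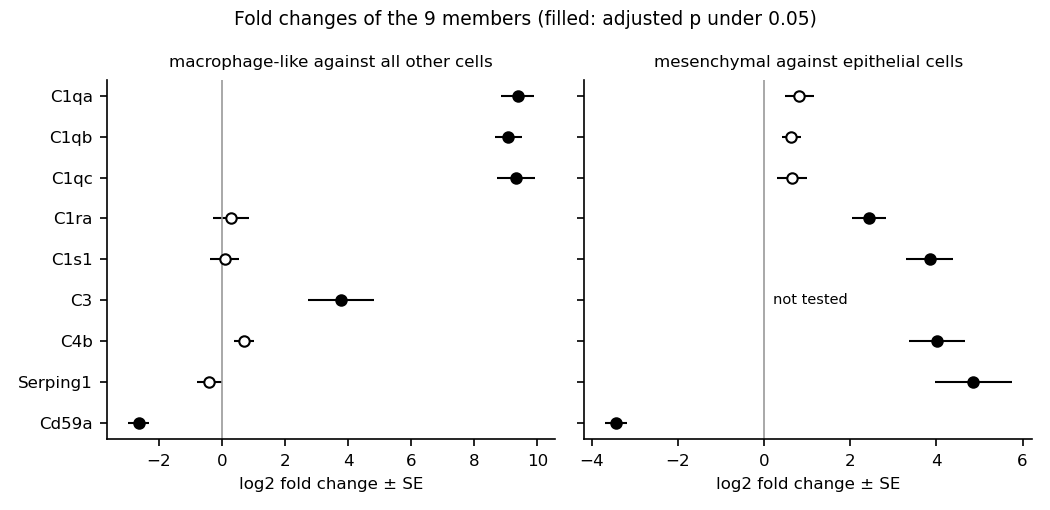
Log2 fold change of each member in macrophage-like against all other cells and in mesenchymal against epithelial cells, with SE, from edgeR's quasi-likelihood fit. The C1q chains stand between 9.08 and 9.38 in the first comparison, and *Serping1*, *C4b*, *C1s1* and *C1ra* between 2.44 and 4.86 in the second.

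Of the 47 other complement genes, 24 could be tested in macrophage-like against all other cells, and 11 were higher and 3 lower, against 15.1% and 17.1% of all genes. Receptors were the group with most calls, with 7 of 9 tested higher. Receptor genes rare in other cells, such as *C3ar1*, passed the expression filter only through the macrophage-like sums and could only be called higher. The number called is therefore no measure of enrichment. The C3a receptor gene *C3ar1* was at 188, 254 and 175 CPM against at most 0.755 CPM elsewhere (log2 fold change 8.74 ± 0.37, adjusted p = 3.06e-06), and the C5a receptor gene *C5ar1* at 40.0, 151 and 72.2 CPM (7.57 ± 0.61, adjusted p = 5.06e-05). The other receptor genes that were higher were *C5ar2* (7.26), *Itgam* (6.87), *Itgax* (6.68), *Itgb2* (6.07) and *Cd93* (3.81). *Itgam*, *Itgax* and *Itgb2* encode chains of the receptors for cleaved C3. *Itgam* and *Itgb2* are also made by granulocytes, whose markers were high in the P14 macrophage-like cells.

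Soluble factors changed in both directions. *Cfp*, for properdin, was at 174, 83.1 and 55.4 CPM in macrophage-like cells against 4.80, 6.03 and 5.59 CPM in others (4.27), and *Fcna*, for a ficolin of the lectin pathway, at 106, 85.9 and 74.8 CPM against at most 0.419 CPM (8.59). Of the inhibitors, *Cd55* was higher (1.55, adjusted p = 0.0172), and *Clu* (-2.12), *Cd59b* (-2.04) and *Susd4* (-3.32) were lower. The median log2 fold change over the 33 listed complement genes tested, members included, was 0.71, and over all genes it was -0.16. Genes that passed the expression filter through macrophage-like cells alone, such as *Fcna*, enter that median. None of 7 terminal pathway genes had enough UMIs to be tested.

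In mesenchymal against epithelial cells 20 of the 47 other genes could be tested, and 6 were higher and 3 lower, against 24.8% and 26% of all genes. *Colec12*, for a membrane collectin, was at 592, 437 and 430 CPM against 1.11, 19.8 and 35.3 CPM (5.15 ± 1.02, adjusted p = 0.0100). Its epithelial sums alone fell short of the expression filter, at 1.11 CPM at P14, so that its call adds no support to its levels. *Vtn*, for vitronectin, was at 42.5, 12.4 and 9.95 CPM against 1.30, 2.01 and 1.64 CPM (3.28). *Cd93* (3.21), *Cr1l* (0.83) and *C1qbp* (0.63) were higher too. The protease gene *Cfi* (-5.63), the lectin pathway protease gene *Masp1* (-3.49) and *Cd59b* (-2.54) were lower, *Cfi* at 0.886, 0 and 0.0985 CPM against 9.66, 5.84 and 5.82 CPM. The median over the 28 listed genes tested was 0.65, and over all genes it was -0.01. *C1s1*, *C4b* and *Colec12*, which needed their mesenchymal sums to pass the expression filter, enter that median, as does *Cfi*. *Cfi* passed the expression filter only through the epithelial sums and could only be called lower.

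No UMI was found for 7 of the other 47 genes (*C1rb*, *Mbl1*, *Cfd*, *C7*, *C8a*, *C8b* and *Cd55b*), and 15 had under 10 UMIs over all libraries. Several members have paralogs nearby, and the counting can split or drop reads that fit both copies: *C1rb* lies 46850 bases from *C1ra* with 0 UMIs, *C1s2* 82265 bases from *C1s1* with 7 UMIs, *C4a* 65209 bases from *C4b* with 74 UMIs and *Cd59b* 4613 bases from *Cd59a* with 568 UMIs. Levels of *C1ra*, *C1s1*, *C4b* and *Cd59a* are uncertain where that happened, which was not tested.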

How the data were processed

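The authors deposited raw UMI counts per gene and barcode for each library, with no normalization. The submitters' processing notes name Cell Ranger 6.0.1 and mm10, whereas the file headers name Cell Ranger 5.0.1. The filtering of barcodes into cells was part of that software, and every deposited barcode held at least 500 UMIs. The tissue was microdissected, incubated in collagenase and loaded on the 10x system with the 3′ v3.1 kit, so that cell shares depend on dissociation.

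From these counts, barcodes with 200 to 6000 genes and at most 15% mitochondrial UMIs were kept. P14 cells, and the P28 libraries after integration, were clustered in Seurat 5.3.0 (R 4.3.3) with 30 principal components of 2000 variable genes, the 56 complement genes excluded, at a resolution of 1. A name needed at least 3 markers, each in 5% of cells or more. No doublet caller was run. UMIs were summed per class and library. CPM is UMIs per 1000000 UMIs of the class. Sums were compared in edgeR 4.0.16 (quasi-likelihood test, TMM, its default expression filter, Benjamini-Hochberg adjustment over all genes tested, threshold 0.05) with the library as a block, since both sums of a library come from the same mice. Their deviations correlated by 0.40, 0.34 and 0.37 for macrophage-like and other cells and by 0.38, 0.48 and 0.30 for mesenchymal and epithelial cells. Replicates are libraries, so p-values measure the spread between 3 libraries of 2 ages.

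All members were named, and other complement genes where they passed a test. Some genes are counted but not reported by name here. Genes of like pattern were the 3 with the highest Pearson correlation of log2(CPM + 10) over class sums, among those with a mean of at least 20 CPM. Members, lists and tests were chosen with earlier results of these data known. Intervals are exact (95%) and, like the limits for 0 UMIs (3 counts), cover counting error only. Of the gene identifiers, 32158 of 32285 were found in GENCODE M21, which gave the positions. On simulated counts with 200 genes changed 4-fold, 78% were recovered for macrophage-like against other cells (13573 genes, 10 false calls). For mesenchymal against epithelial cells 98.5% were recovered (14032 genes, 9 false calls) and for a pair of classes 92.5% (10244 genes, 5 false calls). The simulated counts had the same dispersion for all genes, no library effect and otherwise equal classes. Only genes above a minimum mean count were changed. These rates therefore do not carry over to the real sums or to sparse members such as *C3*.

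Alternatives included DESeq2 1.42.0, no block, no filter on low counts, 10 UMIs or more in every sum, and each library left out. Others were 30% mitochondrial UMIs, 3000 genes with 15000 UMIs, a resolution of 2 and thinning. Levels were also taken without mitochondrial, ribosomal protein and haemoglobin genes. The exclusions of cells with granulocyte, mesenchymal or macrophage markers were added after the data were seen. Python 3.11.15, numpy 2.4.6, scipy 1.17.1, pandas 2.3.3 and matplotlib 3.10.9 did the rest.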

Additional observations from a re-analysis of the deposited data

Results flagged for a closer look

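*C1ra*, the protease gene of C1, lay on opposite sides in the 2 ages when macrophage-like cells were set against all other cells. At P14 it was at 0 CPM in macrophage-like cells and at 8.19 CPM in all others, whereas at P28 it was at 11.3 and 12.9 CPM against 9.25 and 8.75 CPM. The difference between the ages was not tested. The 76 macrophage-like cells at P14 held no UMI of the gene, which at 3 counts allows up to 8.57 CPM, above the level of the other cells, so that no difference was detectable at that depth.

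*Cd93*, a receptor gene first described as one for C1q, did the same. It was at 2.86 CPM in macrophage-like cells at P14 against 6.78 CPM in all others, and at 35.2 and 40.0 CPM against 1.47 and 1.55 CPM at P28. At P14 both values lay below the 8.57 CPM that 3 counts make in macrophage-like cells, so that their order is not settled at that depth. The difference of *Cd93* between the ages was not tested either. In mesenchymal cells *Cd93* was at 16.8 CPM at P14 and at 1.80 and 1.58 CPM at P28.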

How the results depend on the processing

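Of 199 member tests repeated under another setting, 189 kept their direction and side of the threshold, 8 passed it newly, 1 no longer did and 1 reversed, and of 50 repeats of called neighbouring pairs 33 kept their call and 17 lost it. With at least 10 UMIs required in every sum, fewer genes were tested and the counts for macrophage-like cells were 1040 higher and 889 lower with 0 members lower, and for mesenchymal cells 2041 higher and 2114 lower with 1 member higher and 0 lower. Without the replicate block 1315 genes were lower in macrophage-like cells, and the pairs Ccl11/Dcn-led against TBC-like for *C1ra* and *Serping1* and TBC-like against RM-like for *C1s1* lost their call (adjusted p = 0.116, 0.280 and 0.0921). The block changed no other call of a member. Without macrophage-like cells holding mesenchymal markers 3 of 8 members tested were lower (21.4% of all genes), and *C1s1* turned to -2.56. That exclusion built in such a fall for genes expressed in mesenchyme. Leaving out 1 library at a time, between 1017 and 2594 genes were higher and between 795 and 3157 lower in macrophage-like cells, and between 1794 and 4707 higher and between 1696 and 4935 lower in mesenchymal cells. The lowest counts came without P28 replicate 1. Members higher ranged from 3 to 5 and from 4 to 6. Over 8 members 10 neighbouring pairs were called, against 24 without P14, 3 without P28 replicate 1 and 6 without P28 replicate 2, and DESeq2 did not call the pairs of *C1ra* (adjusted p = 0.185) and of *C1s1* (TBC-like against RM-like, adjusted p = 0.146). With up to 30% mitochondrial UMIs *C1qa* (0.76, adjusted p = 0.0334) and *C1qb* (0.78, adjusted p = 0.0284) passed the threshold in mesenchymal against epithelial cells, as did *C1qb* with at most 3000 genes (0.97, adjusted p = 0.0149). Of 756 repeats of levels in CPM, 628 stayed the same and 128 moved. Of 261 repeats of shares, 112 stayed the same and 149 moved. Without mitochondrial, ribosomal protein and haemoglobin genes, 69 of 261 levels moved. With at most 3000 genes and 15000 UMIs, 51 of 243 levels moved, and at a clustering resolution of 2, 8 of 252. The levels and shares given above therefore hold for the main setting. The causes were not tested. Depth limits *C3*, and levels of a few UMIs in small P14 classes.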
